A study of Mus musculus with 6 samples.

Results

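Parental Hepa1-6 cells were compared with scramble vector cells, that is, the untreated line with the control line of a knockdown study. Hepa1-6 is an established mouse hepatoma line, from a liver tumour of a C57/L mouse. The parental cells (wt, no treatment, 1 library) had met neither virus nor drug. The scr cells (2 libraries, replicates 25-2 and 50-1) had been transduced with a lentivirus carrying a scramble vector and kept in puromycin for 7 to 10 days, after which colonies grown from single cells were isolated by limiting dilution. Cells with a midnolin shRNA vector (3 libraries, replicates 25-3, 50-2 and 50-5) went through the same steps and are given only as context. All cells were grown in DMEM with 10% serum, and ribosomal RNA was depleted before sequencing. It is not stated whether the scr libraries came from separate colonies or cultures, whether wt was prepared alongside the others, or what the numbers 25 and 50 mean. Of 25078 genes in the tables, 11211 had an RPKM (reads scaled to the exon length of the gene and to the size of the library) over 1 in at least 1 of the 3 compared libraries, and these are the genes described. With 1 parental library there is no replicate of wt, so no test was made and no p-value is given. Virus, puromycin, single-cell origin and the library itself cannot be told apart in any difference between wt and scr.

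Hepatoma cells keep part of the programme of the hepatocyte, the cell that makes most plasma proteins, lipoproteins and clotting factors. Alpha-fetoprotein (Afp) is the main plasma protein of the fetal liver, is silenced after birth and returns in many liver tumours. A cell line can be a mixed population, and a colony grown from 1 of its cells may keep part of what that cell expressed. A scramble vector carries a hairpin meant to match no transcript.

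Total counts were 25586301 in wt, 28782355 in scr 25-2 and 29764550 in scr 50-1, of which Rn45s, the ribosomal precursor, made up 11.9% to 12.7%. Midn, the gene targeted in the study, had an RPKM of 60.5 in wt, 59.6 in scr 25-2 and 50.8 in scr 50-1. Of 15 hepatocyte markers, 13 passed an RPKM of 1 in wt and 12 in each scr library, with Alb at 2424, 1877 and 2804, whereas Serpina1a was at 0 and Ahsg reached at most 0.21. No lymphocyte or erythroid marker passed 1 in these libraries, and of 8 macrophage markers 2 passed in wt, 3 in scr 25-2 and 2 in scr 50-1. These were Cd14 (29.9, 36.3 and 63.9), Cd68 (3.51, 3.02 and 4.53) and, in scr 25-2 alone, Csf1r (1.12), whereas Ptprc, Adgre1 and Clec4f stayed at or below 0.06. Of 6 cholangiocyte markers, 4 passed 1 in each library (Krt7, Sox9, Spp1 and Epcam). Of 9 fibroblast and stellate markers, 3 passed in wt (Dcn, Pdgfra and Des) and 1 in each control, with Dcn at 1028, 594 and 562 and Col1a1 and Col3a1 at or below 0.08.

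The scr libraries differed from each other in more genes than wt differed from either. They were at least 2-fold apart in 1327 genes (11.8%), against 754 (6.73%) for wt and scr 25-2 and 1202 (10.7%) for wt and scr 50-1. The median absolute log2 difference over all 11211 genes was 0.32 between the scr libraries, 0.27 between wt and scr 25-2 and 0.33 between wt and scr 50-1. A gene was therefore counted as different only where wt lay at least 2-fold beyond both scr libraries. That was so for 139 genes above both (1.24%) and 75 genes below both (0.669%). By any amount, wt was above both scr libraries in 3719 genes (33.2%) and below both in 3320 (29.6%). Of the 139 higher genes, 45 were beyond both by 4-fold or more, as were 11 of the 75 lower genes. At the edge of the rule, Pla1a (2.00-fold) and Des (2.01-fold) were just inside and Mrps33 (1.997-fold) and Dnph1 (1.99-fold) just outside on the higher side, with Napepld (2.01-fold) inside and Irs2 (1.997-fold) and Agmo (1.995-fold) outside on the lower side.

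**Figure D1:**
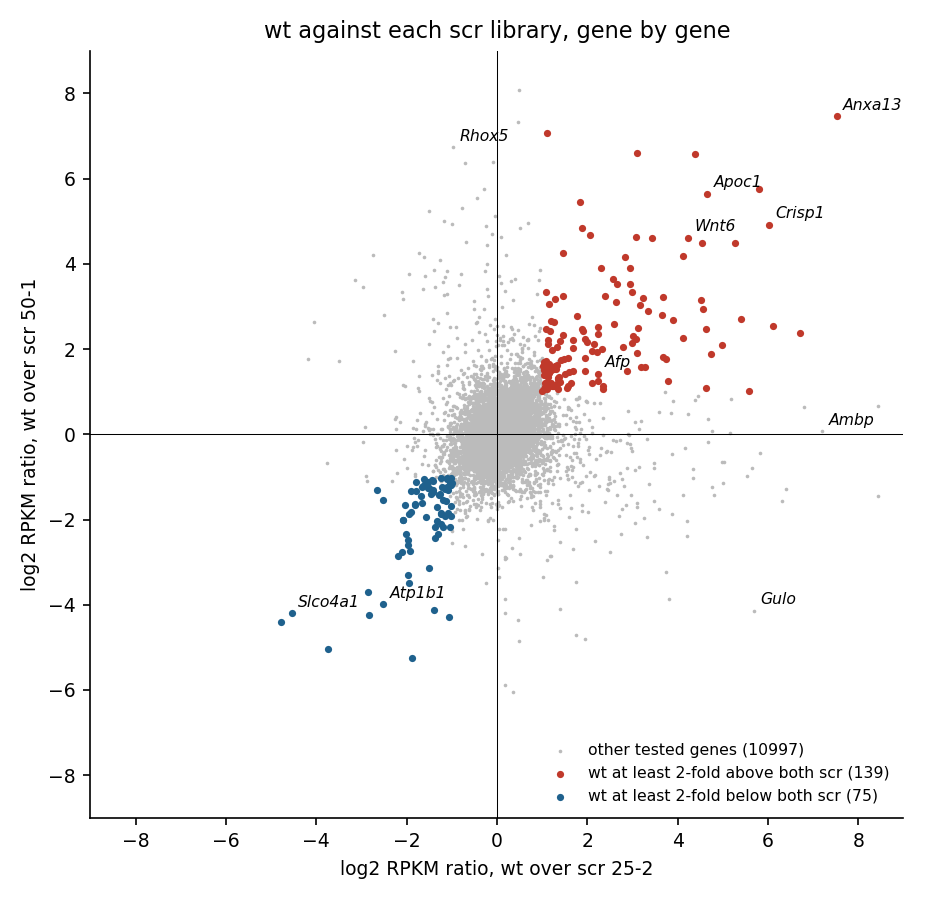
Each point is 1 of the 11211 tested genes, with the log2 RPKM ratio of wt to scr 25-2 on the horizontal axis and to scr 50-1 on the vertical axis, where counts under 3 were set to 3. The 139 red genes are at least 2-fold higher and the 75 blue genes at least 2-fold lower in wt than in both scr libraries, while genes such as Ambp, Gulo and Rhox5, which differ between the scr libraries, lie along the axes or in the other quadrants.

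Most genes for secreted proteins of the hepatocyte were higher in wt than in both scr libraries. Of 35 tested members, 23 were above both by any amount, 1 (Lbp, the carrier of bacterial lipopolysaccharide) was below both, and 10 were above both by 2-fold, with none below. Over all tested genes the shares were 33.2%, 29.6%, 1.24% and 0.669%. Their median log2 ratio was 1.23 over scr 25-2 and 0.83 over scr 50-1, against 0.04 and 0.01 over all tested genes. Their spread between the controls was wide as well. Of the 35, 21 were at least 2-fold apart in the scr libraries, against 11.8% over all tested genes. The summed RPKM of the 15 hepatocyte markers was 7002 in wt, 4272 in scr 25-2 and 4998 in scr 50-1. In these bulk samples, more cells that express a gene and more RNA of that gene per cell cannot be told apart.

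Afp (chromosome 5, 90490714 to 90508907 of mm10) was the most abundant gene in the higher set. Its RPKM was 1430 in wt, 302 in scr 25-2 and 533 in scr 50-1, which made wt 4.73-fold higher than the former (95% counting interval 4.66 to 4.81) and 2.68-fold higher than the latter (2.65 to 2.72). Such intervals cover counting error only. Apoc1 (chromosome 7, 19689480 to 19692659), an apolipoprotein of the lipoproteins that carry triglyceride, had an RPKM of 57.3 in wt against 2.27 and 1.14 in scr 25-2 and 50-1. Both scr libraries thus lay far below wt, by 25.2-fold (18.2 to 36.1) and 50.2-fold (31.6 to 85.1), and the knockdown libraries lay lower still, at 0.23, 0.06 and 0.05 in 25-3, 50-2 and 50-5. Proc, which encodes the anticoagulant protein C, was at 23.01 in wt, 4.37 in scr 25-2 and 2.44 in scr 50-1. The haem scavenger Hpx was at 136 in wt and nearly level in the controls, at 62.8 and 64.6, and with the slope over exon length described further on taken out it was just under 2-fold above them (log2 ratio 0.93). The thrombin inhibitor Serpind1 was likewise at 27.6 in wt and at 11.8 and 12.5 in the controls.

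Mttp, the transfer protein that loads lipid onto apolipoprotein B, had an RPKM of 13.3 in wt, 1.68 in scr 25-2 and 3.04 in scr 50-1. Apob itself was at 6.82 in wt and at 3.00 and 1.07 in the controls, and Apoa1, the main protein of high-density lipoprotein, was at 1.59, 0.21 and 0.11. Apoc4, named after its values were seen, was at 72.7 in wt against 34.7 and 34.1. Apoe, at 1527 in wt against 1178 and 818, and Apoa2, at 2.70 against 2.11 and 1.13, did not pass 2-fold. For Apob the knockdown libraries did not line up with either control, at 52.2, 37.8 and 4.37 in 25-3, 50-2 and 50-5. Gc, the vitamin D carrier, was at 11.8 in wt, 4.29 in scr 25-2 and 0.62 in scr 50-1. At lower levels, prothrombin (F2) was at 3.08 in wt against 0.62 and 0.21, and vitronectin (Vtn) at 1.45 against 0.04 and 0.26. Other plasma protein genes did not separate the libraries this way. Alb lay between the controls, Ttr was at 170 in wt against 119 and 131, and C3 was at 90.3 in wt, 16.7 in scr 25-2 and 219 in scr 50-1.

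Several enzymes were in the higher set too. Akr1c18, a reductase that inactivates progesterone, had an RPKM of 126 in wt, 17.7 in scr 25-2 and 7.11 in scr 50-1, and 0.88 to 1.87 in the knockdown libraries. Its relatives nearby on chromosome 13, Akr1c6 (7.817, 0.050 and 1.498) and Akr1c20 (5.51, 0.41 and 1.61), which are named here after their values were seen, were also in the set, and reads of such close relatives can be split between them. The microsomal glutathione transferase Mgst2 was at 61.2 in wt, 3.50 in scr 25-2 and 12.8 in scr 50-1, but between 31.4 and 44.2 in the knockdown libraries. Cth, which makes cysteine from cystathionine, was at 9.07 against 4.17 and 1.97. Across 23 tested genes of amino acid, urea and one-carbon metabolism, 15 were above both controls by any amount (33.2% over all tested genes), 1 was below both (29.6%) and 2 were above by 2-fold (1.24%), with median log2 ratios of 0.30 and 0.25. Angptl4, an inhibitor of lipoprotein lipase, was at 8.36 in wt against 3.46 and 2.88. Retinal dehydrogenase 2 (Aldh1a2), which makes retinoic acid, had 62 counts in wt against 1 in scr 25-2 and 2 in scr 50-1. From these counts as deposited, without the floor of 3, the ratios were 70.0 (95% counting interval 12.1 to 2808) and 33.9 (8.99 to 286), and with the floor wt was 22.6-fold above the nearer control. With 1 RPKM added to each value, Aldh1a2 fell just under 2-fold, at a log2 ratio of 0.99.

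**Figure D2:**
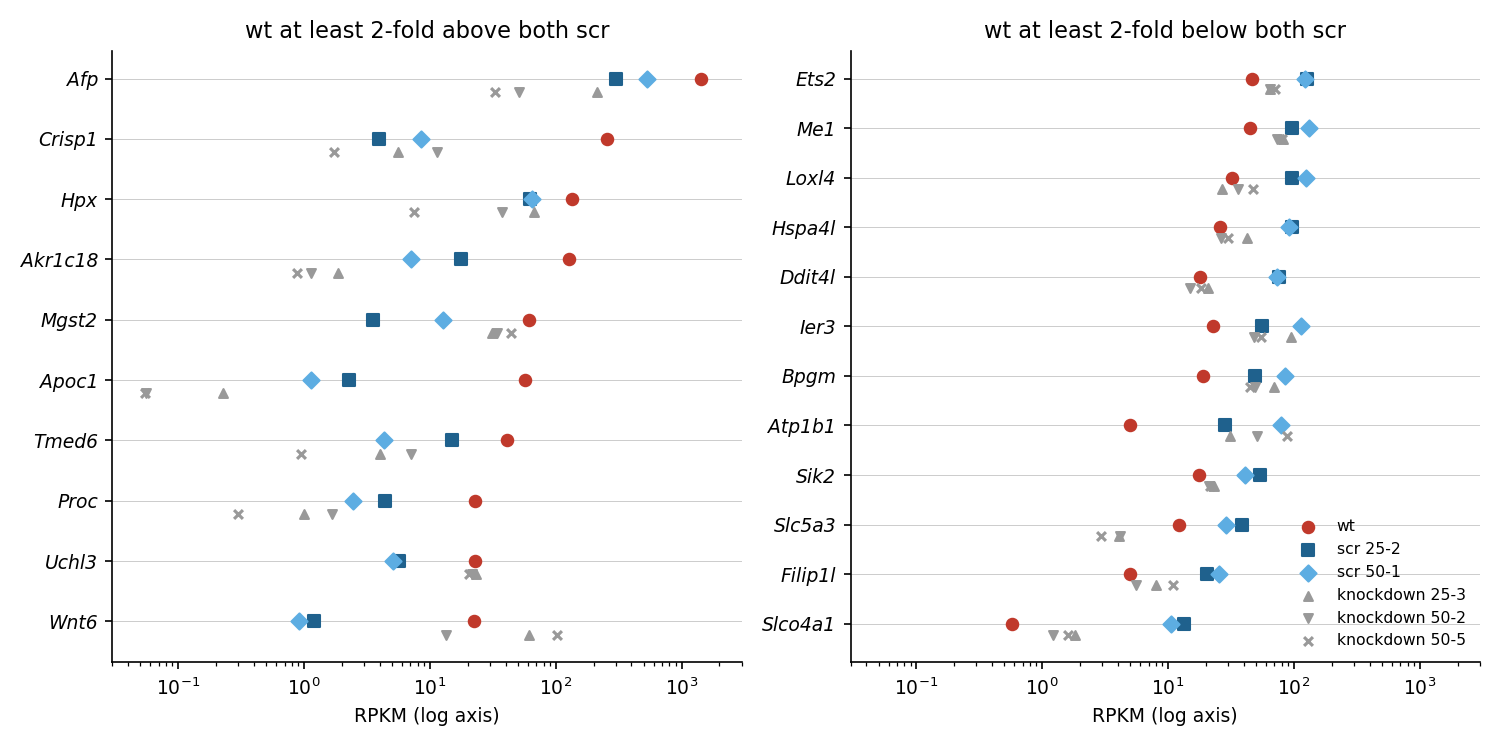
RPKM on a log axis in each library for 10 genes at least 2-fold higher (left) and 12 at least 2-fold lower (right) in wt than in both scr libraries, with wt as red circles, scr as blue squares and diamonds, and the knockdown libraries as grey symbols set slightly lower. Crisp1 stands at 257 in wt against 3.96 and 8.48 in the scr libraries, and Atp1b1 at 4.98 against 28.4 and 78.4.

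Outside the liver programme, the largest difference among abundant genes was that of Crisp1, a cysteine-rich protein that the epididymis secretes onto sperm. Crisp1 (chromosome 17, 40293758 to 40319207) had an RPKM of 257 in wt, 3.96 in scr 25-2 and 8.48 in scr 50-1. Wt was therefore 64.8-fold (55.6 to 76.1) and 30.3-fold (27.2 to 33.8) above the controls, and the knockdown libraries were at 5.61, 11.4 and 1.73, far below wt as well. Anxa13, an annexin of epithelial membranes, had 488 counts in wt, 3 in scr 25-2 and 0 in scr 50-1, an RPKM of 15.1 against 0.08 and 0. The signalling ligand Wnt6 (chromosome 1, 74771892 to 74785319) was at 22.5 in wt, 1.20 in scr 25-2 and 0.92 in scr 50-1. Here the knockdown libraries were on the side of wt, at 60.9, 13.5 and 103. The neighbouring Wnt10a, named after its values were seen, was at 1.72 in wt against 0.40 and 0.45. Among 23 tested Wnt components and targets, Wnt6 was the 1 member past 2-fold, 4 were above both controls by any amount and 7 were below both, where the shares over all tested genes were 1.24%, 33.2% and 29.6%.

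Uchl3, a ubiquitin hydrolase, was at 22.7 in wt, 5.70 and 5.10 in the controls and 20.6 to 23.1 in the knockdown libraries. Uchl4, a close copy of Uchl3 that can share its reads, was at 14.4 in wt against 3.04 and 2.54. Of 27 tested growth factor receptors and ligands, 3 were in the higher set and none in the lower, where the shares over all tested genes were 1.24% and 0.669%. The receptor Fgfr2 was at 7.27 in wt against 0.92 and 0.72, the receptor Pdgfra at 1.93 against 0.31 and 0.17, and the ligand Btc at 11.4 against 4.57 and 5.03. Of 41 tested mesenchymal, matrix and adhesion genes, Gas6 (22.7 against 10.1 and 8.11) and Itgb4 (11.96 against 4.91 and 3.94) were in the higher set, with 13 above both controls by any amount and 9 below both, against the same 1.24% and against 33.2% and 29.6% over all tested genes.

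Pecam1, a junction protein best known from endothelium, was at 2.85 in wt and at 0.16 in each control. It was the only endothelial marker of 6 over an RPKM of 1 in wt, where Cdh5, Tek, Kdr, Stab2 and Lyve1 were at or below 0.025. Milr1, an inhibitory receptor described in mast cells, was at 5.41 in wt against 0.26 and 0.06, and Ms4a4d at 3.08 against 0.13 and 0.35. The remaining named genes of the higher set were Tmed6 (41.1, 14.999 and 4.31), Gm15767 (25, 3.37 and 8.98), Mal (10.3, 1.33 and 0.90), Cdh16 (3.07, 0.36 and 0.02), Tmem130 (2.51, 0.20 and 0.36), the immunoproteasome subunit Psmb9 (6.33, 1.64 and 2.26), the lysosomal p53 target Dram1 (1.15, 0.51 and 0.21), Trap1a (1.69, 0.20 and 0.36) and Plac8, with 27 counts in wt, 0 in scr 25-2 and 4 in scr 50-1. Repin1, named after its values were seen, had 148 counts in wt and 0 in both controls. Wt was not 2-fold above every knockdown library for Repin1.

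Among the genes lower in wt, Atp1b1, the beta subunit of the sodium pump (chromosome 1, 164437099 to 164458355), had an RPKM of 4.98 in wt, 28.4 in scr 25-2 and 78.4 in scr 50-1. Both controls were thus above wt, by 5.72-fold and 15.8-fold, and the knockdown libraries were too, at 31.1, 50.7 and 88.3. The largest ratio among genes with an RPKM of at least 2 in both controls was that of Slco4a1, an organic anion transporter, which was at 0.58 in wt, 13.4 in scr 25-2 and 10.6 in scr 50-1, or 23.3-fold and 18.3-fold higher in the controls. Slc5a3, which imports the osmolyte myo-inositol, was at 12.2 in wt against 38.5 and 29.0. Hspa4l, a chaperone known from osmotic stress, was at 25.8 in wt, 96.5 in scr 25-2 and 91.5 in scr 50-1, with the controls close to each other. The knockdown libraries were below wt for Slc5a3, at 2.95 to 4.13, and between wt and the controls for Hspa4l, at 26.3 to 42.7. In a list of tonicity response genes drawn up after these values were seen, 7 of 8 tested members were below both controls by any amount and 3 by 2-fold (29.6% and 0.669% over all tested genes), with median log2 ratios of -0.96 and -0.93. Nfat5, the transcription factor of that response, was at 21.4 in wt against 43.9 and 32.6, and the amino acid transporter Slc38a2 at 175 against 320 and 490. With the slope over exon length described further on taken out, the medians of the list were -0.80 and -0.70. Since this list was chosen for how its genes moved, its counts describe them and no more.

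Ddit4l, an inhibitor of mTOR signalling (chromosome 3, 137623672 to 137628332), was at 18.01 in wt and at 76.1 and 73.1 in scr 25-2 and 50-1, and at 15.04 to 20.9 in the knockdown libraries. The transcription factor Ets2 was at 46.5 against 128 and 122, and Ier3, an early response gene, at 22.6 against 56.2 and 115. Ier3 was the 1 immediate early gene past 2-fold among 31 tested, of which 7 were above both controls by any amount and 12 below both, where the shares over all tested genes were 0.669%, 33.2% and 29.6%. The kinase Sik2 was at 17.5 in wt against 54.2 and 40.8, and Filip1l at 5.03 against 20.4 and 25.3. Loxl4, which crosslinks collagen, was at 32.5 against 97.2 and 125. Malic enzyme (Me1), a source of NADPH, was at 44.8 against 97.3 and 132. Bpgm, which makes 2,3-bisphosphoglycerate, was at 18.9 against 48.9 and 84.9, and the heparan sulfate enzyme Hs3st1 at 20.9 against 44.4 and 51.6.

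With an RPKM of 2 to 20 in the lower of the controls, the lower set also held Ampd3, an AMP deaminase (4.11 in wt, 15.6 and 27.3 in the controls), Megf9 (4.91, 19.3 and 29.7), Il18rap, a subunit of the interleukin-18 receptor (1.11, 4.29 and 12.4), Slc45a3 (1.12, 4.41 and 11.1), the natriuretic peptide receptor Npr1 (0.96, 2.49 and 5.16), 1700016C15Rik (0.36, 2.54 and 6.80) and Krtap5-5 (0.78, 2.74 and 2.48). The stress gene Nupr1 was at 1.23 in wt against 2.88 and 5.27, with 13.6 to 17.2 in the knockdown libraries. Among 363 tested small RNA genes, 3 were in the higher set and 5 in the lower, where the shares over all tested genes were 1.24% and 0.669%, and all 8 rested on low counts. Mirlet7c-1 had 2 counts in wt against 13 and 12, and Mir125a 7 against 21 and 19, and Mir125a ends just before Spaca6 on the same strand, which was lower in wt too, at 4.98 against 14.4 and 11.9. Snord4a had 8 counts against 32 and 27, Mir1192 had 5 against 15 and 14, and Mir5125 had 17 against 51 and 40. In the other direction were Mir19a with 15 counts against 8 and 5, Mir6546 with 29 against 13 and 14, and Vaultrc5 with 43 against 21 and 12.

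Promoter composition was described for both sets. Of the genes in the sets, 103 higher and 58 lower genes had an entry in RefSeq (GRCm38.p6), as did 8713 of all tested genes. Over the 250 bases before the start site, the median number of CpG dinucleotides was 6 for the higher set, 13 for the lower set and 16.3 for all tested genes. The letters TATAAA stood on the sense strand in the last 50 of these bases in 6 of the 103 (5.83%), 3 of the 58 (5.17%) and 159 of the 8713 (1.82%). A match in such a window is a description and not a binding site. Over 300 bases, with the 50 after the start site included, the median was 7 CpG for the higher set, 19.75 for the lower set, 21 for all tested genes and 9 for the 380 genes that differed 4-fold or more between the scr libraries. The windows of Crisp1 and Wnt6, both far above the controls in wt, and of Atp1b1 and Ddit4l, both below them, are shown 5′ to 3′ on the sense strand, with CpG in capitals, because they span this range. They hold 1, 28, 24 and 10 CpG, and that of Crisp1 holds TATAAA. They lie at chr17:40319208-40319457 (minus strand), chr1:74771642-74771891 (plus), chr1:164458356-164458605 (minus) and chr3:137623422-137623671 (plus).
Crisp1: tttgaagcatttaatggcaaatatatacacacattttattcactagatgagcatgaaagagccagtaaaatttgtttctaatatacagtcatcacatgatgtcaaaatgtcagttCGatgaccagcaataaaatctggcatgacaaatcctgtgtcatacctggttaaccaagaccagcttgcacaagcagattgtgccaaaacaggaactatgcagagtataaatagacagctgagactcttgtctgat
Wnt6: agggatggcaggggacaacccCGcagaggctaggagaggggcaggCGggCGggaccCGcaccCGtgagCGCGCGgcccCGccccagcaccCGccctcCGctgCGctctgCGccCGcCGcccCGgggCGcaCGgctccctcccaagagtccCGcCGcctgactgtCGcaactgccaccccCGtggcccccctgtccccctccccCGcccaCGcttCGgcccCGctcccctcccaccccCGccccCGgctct
Atp1b1: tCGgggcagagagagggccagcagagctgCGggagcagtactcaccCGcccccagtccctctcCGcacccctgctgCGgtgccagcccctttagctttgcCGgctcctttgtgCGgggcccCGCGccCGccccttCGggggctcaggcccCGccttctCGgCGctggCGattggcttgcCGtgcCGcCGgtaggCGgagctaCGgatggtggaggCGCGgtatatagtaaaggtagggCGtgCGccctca
Ddit4l: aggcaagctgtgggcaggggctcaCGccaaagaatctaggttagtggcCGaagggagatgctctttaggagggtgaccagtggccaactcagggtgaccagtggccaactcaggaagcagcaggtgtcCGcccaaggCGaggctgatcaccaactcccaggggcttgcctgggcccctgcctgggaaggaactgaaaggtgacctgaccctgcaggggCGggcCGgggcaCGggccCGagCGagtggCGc

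The ratio of wt to scr fell with the length of the gene above 300 bases of exon. The shortest class, 363 genes of up to 300 bases, is not read, since its medians are the ratios a gene takes when its counts in all 3 libraries are set to the floor of 3. For genes with 300 to 600 bases of exon the median log2 ratio was 0.32 over scr 25-2 and 0.46 over scr 50-1, and it fell step by step to -0.19 and -0.19 for genes with more than 6000 bases. Between the scr libraries the medians of the same classes stayed between -0.07 and 0.05. Against the knockdown libraries, wt was also relatively higher in short genes, with median log2 ratios of knockdown to wt of -0.50 to -0.45 at 300 to 600 bases and 0.13 to 0.15 above 6000. The median exon length was 1896 bases in the higher set, 3062 in the lower set and 2924 over all tested genes. With the running median over exon length taken out, chosen after seeing the data, the higher set had 121 genes, 119 of them shared, and the lower set 79, 65 of them shared.

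**Figure D3:**
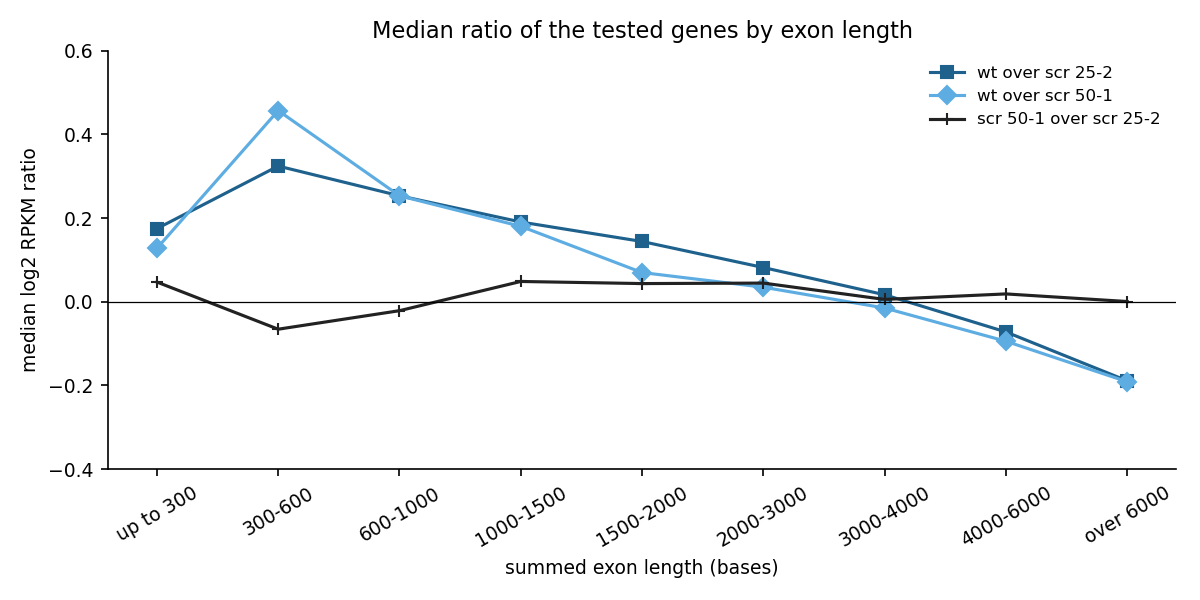
Median log2 RPKM ratio of the tested genes in 9 classes of summed exon length. Both ratios of wt to an scr library fall from 0.32 and 0.46 at 300 to 600 bases to -0.19 above 6000, while the ratio between the scr libraries stays between -0.07 and 0.05. The points of the shortest class are set by the floor of 3 counts.

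Short gene families were read against that slope, and against the 33.2% above both and 29.6% below both over all tested genes. Replication-dependent histones, which are made in S phase and whose mRNAs end in a stem-loop in place of a poly(A) tail, were above both controls by any amount in 49 of 53 tested genes and below both in 1. Their median log2 ratio was 0.79 over scr 25-2 and 0.51 over scr 50-1, and their summed RPKM was 6242 in wt, 3818 in scr 25-2, 4201 in scr 50-1 and 3135 to 3900 in the knockdown libraries. The examples named here were chosen after their values were seen. H4c3 was at 577 in wt against 335 and 347, H1f2 at 472 against 254 and 308, and H4c14 at 346 against 197 and 181. The differences were small, and only the linker histone H1f1 passed 2-fold, at 3.04 against 0.59 and 1.46, with 6.69 to 10.5 in the knockdown libraries. With the length slope taken out, H1f1 was no longer 2-fold above both, at a log2 ratio of 0.80 to the nearer control. Many histone genes are near-identical in sequence, so their reads can be shared. Of the 53 genes, 43 lie on chromosome 13, with medians of 0.83 and 0.44, and the other 10 had medians of 0.40 and 0.86. With the length slope taken out, the medians over all 53 were 0.59 and 0.24, and 35 genes were above both controls and 3 below both.

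Subunits of the respiratory chain, most of them short, were above both controls in 57 of 75 tested genes and below both in 4, with median log2 ratios of 0.22 and 0.31 and none past 2-fold. With the length slope taken out, the medians were 0.06 and 0.10, with 35 above and 19 below. Cytosolic ribosomal proteins, which are as short, were evenly placed as deposited, 31 of 79 above both and 30 below both with medians of -0.04 and 0.06, and lay at -0.24 and -0.18 with the slope taken out. By total counts, ribosomal proteins were at -0.04 and 0.15. Genes of DNA replication and mitosis, with a median exon length of 3416 bases, were above both controls in 28 of 51 tested genes and below both in 7, at medians of 0.23 and 0.08, and none passed 2-fold.

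**Figure D4:**
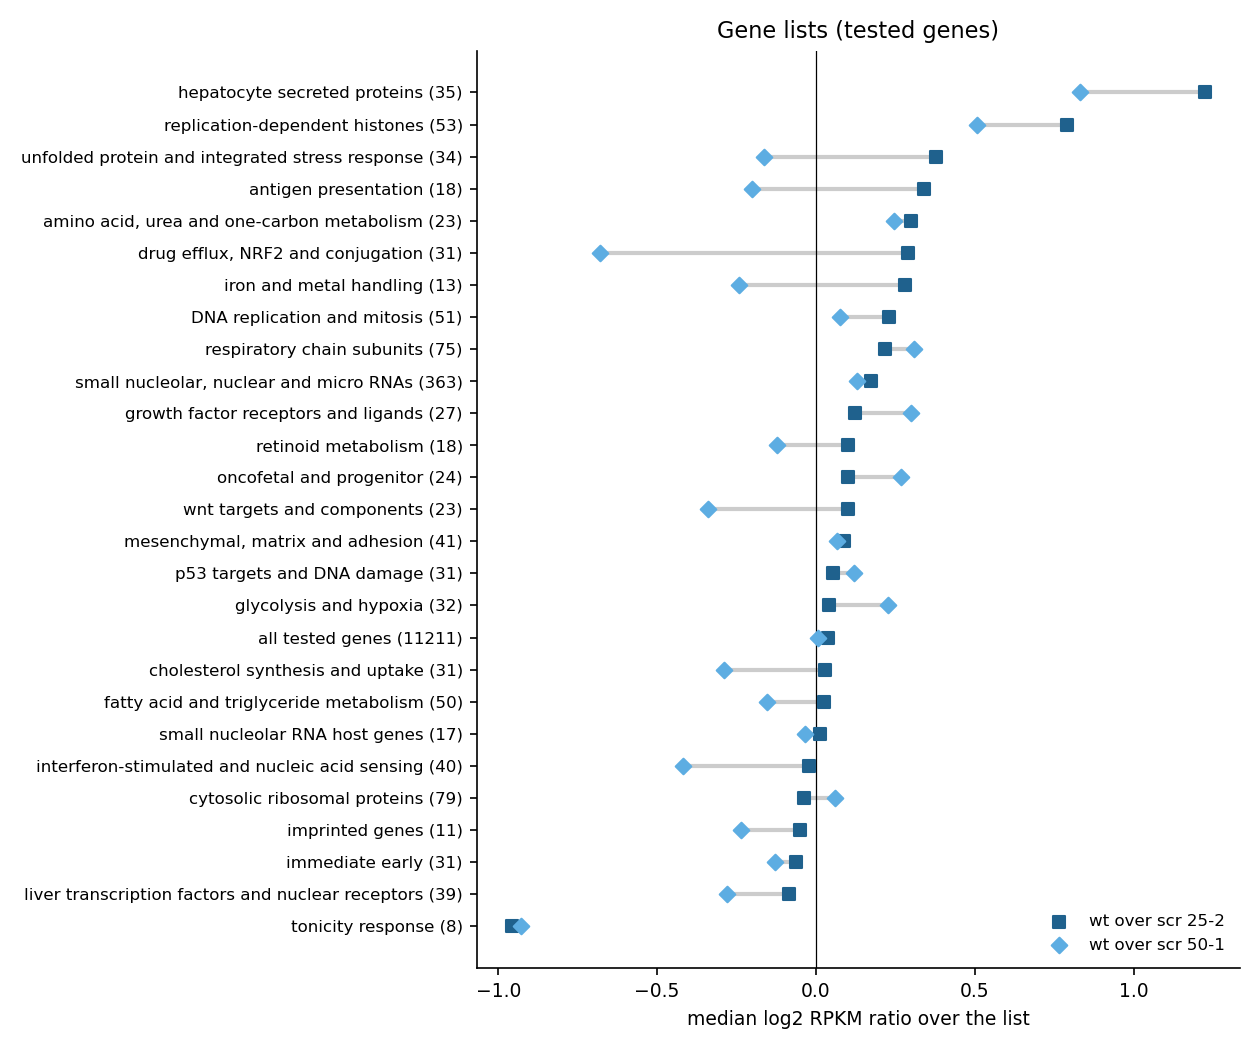
Median log2 RPKM ratio of wt to scr 25-2 (squares) and to scr 50-1 (diamonds) for each gene list with at least 8 tested members, the number of which is in brackets. Hepatocyte secreted proteins (1.23 and 0.83) and replication-dependent histones (0.79 and 0.51) lie furthest to the right, and the tonicity list, drawn up after its values were seen, lies at -0.96 and -0.93. The medians of the small RNA list (0.17 and 0.13) are the ratios of a gene set to the floor of 3 counts and are not read.

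Pathways that a virus, a hairpin or a drug could touch were read next, against shares of 33.2% above both controls and 29.6% below both over all tested genes. Interferon-stimulated and nucleic acid sensing genes were below both controls in 18 of 40 tested genes and above both in 7, with median log2 ratios of -0.02 and -0.42. Oas1b, a member of the 2′-5′ oligoadenylate synthetase family, was the 1 gene past 2-fold, at 0.92 in wt against 2.29 and 2.98, and with 1 RPKM added to each value it was not (log2 ratio -0.78). The controls themselves were 2-fold apart in 10 of the 40, against 11.8% over all tested genes. Mx1 was at 3.80 in wt, 0.45 in scr 25-2 and 12.5 in scr 50-1. Of 18 antigen presentation genes, 5 were above both and 2 below both, at medians of 0.34 and -0.20. Of 31 p53 targets and DNA damage genes, 11 were above both and 5 below both, at medians of 0.05 and 0.12, and Cdkn1a was at 85.7 in wt against 69.5 and 70.7. Of 34 genes of the unfolded protein and integrated stress response, 12 were above both and 8 below both, at medians of 0.38 and -0.16.

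Genes of drug efflux, NRF2 and conjugation differed mainly between the controls. The scr libraries were 2-fold apart in 18 of these 31 tested genes (11.8% over all tested genes), with a median log2 ratio of scr 50-1 to scr 25-2 of 1.01, and wt lay between them in 21, above both in 3 and below both in 7. None was 2-fold beyond both controls. The glutathione transferase Gsta3 was at 60.4 in wt, 16.5 in scr 25-2 and 190 in scr 50-1, and the aryl hydrocarbon receptor target Cyp1a1 at 79.7, 33.3 and 161. Gclc, the rate-limiting enzyme of glutathione synthesis, was at 19.3 and 22.2 in wt and scr 25-2 and at 77.2 in scr 50-1. These 3 examples were chosen after their values were seen.

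Liver transcription factors and nuclear receptors were below both controls in 16 of 39 tested genes and above both in 4, with median log2 ratios of -0.09 and -0.28, and none passed 2-fold. The shares given above, 29.6% below and 33.2% above over all tested genes, hold for these lists too. Hnf4a was at 29.1 in wt, 33.9 in scr 25-2 and 11.04 in scr 50-1, and Cebpa at 16.1, 9.82 and 5.07. Cholesterol synthesis and uptake genes were below both in 11 of 31 and above both in 3, at 0.03 and -0.29. For 50 genes of fatty acid and triglyceride metabolism the counts were 7 above and 15 below, at 0.02 and -0.15, and for 32 of glycolysis and hypoxia 13 above and 7 below, at 0.04 and 0.23. For 18 retinoid genes they were 6 above and 5 below, for 24 oncofetal and progenitor genes 12 above and 2 below, for 13 iron and metal genes 3 above and 1 below, for 11 imprinted genes 4 above and 5 below, for 7 germline and placental genes 3 above and 1 below, and for 17 small nucleolar RNA host genes 8 above and 6 below. No gag-derived gene passed an RPKM of 1 in these libraries.

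The scr libraries were at least 4-fold apart in 380 genes, and wt was between them in 308 (81.1%), above both in 64 and below both in 8. Over all tested genes, wt was between them in 4172 of 11211. The 380 genes were chosen for the gap between the controls, so their counts are a description. Wt was nearer to scr 25-2 in 205 and to scr 50-1 in 175. Of the 225 genes higher in scr 50-1, wt was nearer to scr 50-1 in 147, and of the 155 higher in scr 25-2, it was nearer to scr 25-2 in 127, so wt was on the side of the higher control in most genes either way.

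Among genes high in scr 50-1, Gulo, which makes vitamin C, had an RPKM of 40.8 there, 2.32 in wt and 0 in scr 25-2. Ambp, which encodes alpha-1-microglobulin and bikunin, was at 56.5 and 59.4 in scr 50-1 and wt and at 0.40 in scr 25-2. Wt thus sat with scr 50-1 for Ambp and between the controls for Gulo. Enpp2, which makes lysophosphatidic acid, was at 34.7, 11.7 and 0.15, and Ly6c1 at 44.3, 4.69 and 0.35, in scr 50-1, wt and scr 25-2. Among genes high in scr 25-2, the homeobox gene Rhox5 on the X chromosome was at 27.4 there, 14.0 in wt and 0.04 (1 count) in scr 50-1, and at 266 to 303 in the knockdown libraries. The tight junction gene Cldn2 was at 20.1, 8.73 and 0.73, and complement factor B (Cfb) at 25.1, 10.1 and 1.65. The prostaglandin transporter Slco2a1 was at 22.4 and 19.3 in scr 25-2 and wt and at 1.81 in scr 50-1, whereas the collagen gene Col4a1 was at 42.6, 10.1 and 4.51.

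Position in the genome also separated the libraries. Chromosome 6 was the only chromosome whose median log2 ratio was above 0.3 against both controls, at 0.32 over scr 25-2 and 0.41 over scr 50-1. Of its 525 tested genes, 338 (64.4%) were above both, against 33.2% over all tested genes. This chromosome held 16 of the 139 higher genes (11.5%), against 4.68% of all tested genes, and 3 of the 75 lower ones. In windows of 10 Mb on this chromosome, the largest medians were 0.48 and 0.86 between 80 and 90 Mb, where 64 of 78 genes were above both controls, and 0.36 and 0.84 between 90 and 100 Mb. Of 201 windows with at least 20 tested genes, 3 had both medians above 0.3, all on chromosome 6, and none had both below -0.3. With the length slope taken out, the medians of chromosome 6 were 0.27 and 0.42. The median log2 ratio of knockdown to wt on chromosome 6 was 0.11, 0.08 and -0.23 in 25-3, 50-2 and 50-5.

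The controls differed from each other on other chromosomes. The median log2 ratio of scr 50-1 to scr 25-2 was 0.64 on X, 0.55 on chromosome 15 and 0.50 on chromosome 13, and -0.36, -0.34 and -0.34 on chromosomes 10, 3 and 19, and 46 of the 201 windows were apart by more than 0.3. On X, wt was level with scr 25-2 (0.05) and below scr 50-1 (-0.60). On chromosome 13 it was level with scr 50-1 (0.04) and above scr 25-2 (0.55), and on chromosome 15 it lay between them (0.27 and -0.30). DNA was not measured here, so the number of copies of these chromosomes is not known.

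**Figure D5:**
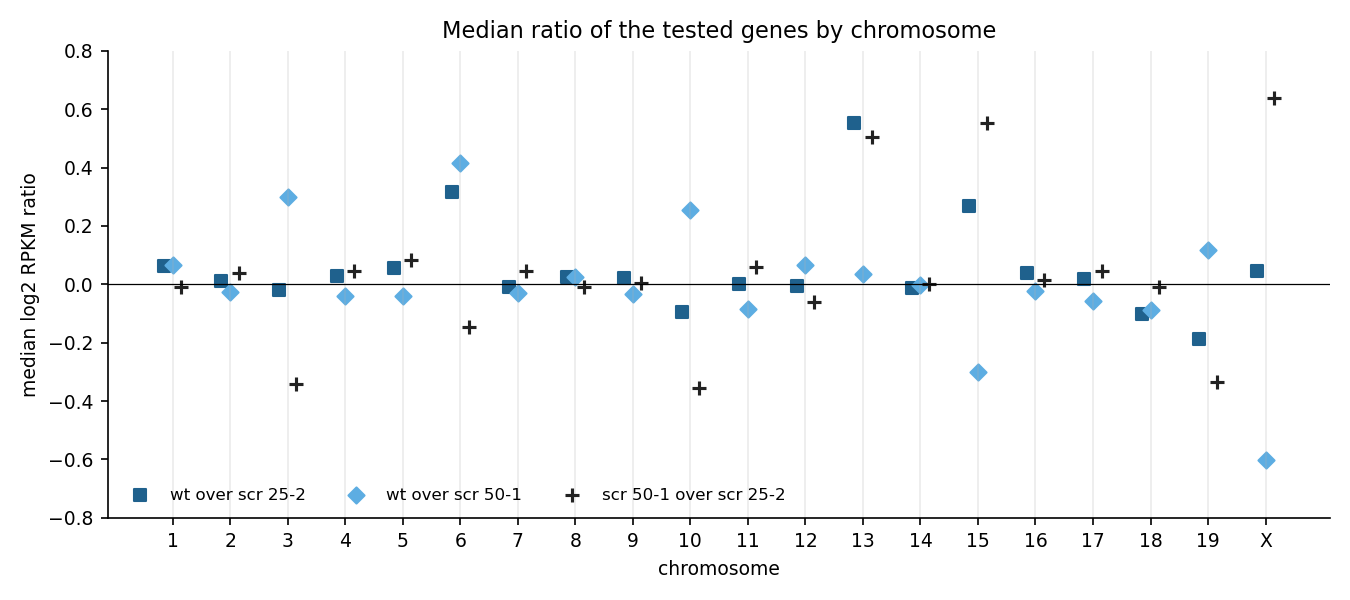
Median log2 RPKM ratio of the tested genes on each chromosome for wt over scr 25-2 (squares), wt over scr 50-1 (diamonds) and scr 50-1 over scr 25-2 (crosses). Chromosome 6 is high in wt against both controls (0.32 and 0.41), and chromosomes 3, 10, 13, 15, 19 and X differ between the controls by 0.34 to 0.64 in size.

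None of the tested genes at the centre of the knockdown study lay beyond both controls by 2-fold. Aldh1a1, which oxidizes retinal, was at 491 in wt against 643 and 873. The retinol receptor Stra6 was at 72.4 against 66.7 and 64.7, and the long-chain acyl-CoA synthetase Acsl1 at 138 against 175 and 156. Lpl, lipoprotein lipase, was at 135 in wt, 76.9 in scr 25-2 and 148 in scr 50-1, and the lipoprotein receptor Lrp1 at 51.1 against 36.4 and 41.8. The retinol-binding protein gene Rbp2 was below an RPKM of 1 in all 3 libraries (0.68, 0.25 and 0) and so was not tested, although its 12 counts in wt, against 5 and 0, gave a ratio of 2.71 to the nearer control with a counting interval of 0.888 to 9.82.

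Placed beside all 5 other libraries, wt was at least 2-fold above each of them in 58 genes (0.517%) and at least 2-fold below each in 16 (0.143%). Those above included Afp, Apoc1, Crisp1, Akr1c18, Anxa13, Proc, Mttp, Serpind1, Hpx (not with the length slope taken out), Pecam1 and Tmed6, and those below Atp1b1, Slco4a1, Ier3, Bpgm, Ampd3, Il18rap and Nupr1. All 5 other libraries came from cells that had met virus and puromycin and had been grown from single cells, so these counts cannot tell those steps apart from the wt library itself. The knockdown libraries are given as levels only, since the same wt library stands on 1 side of both readings.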

How the data were processed

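The authors sequenced ribosome-depleted RNA, mapped the reads with TopHat2 to the mouse build mm10 and used HTSeq to count reads for each RefSeq gene, and they deposited these raw counts. The version of HTSeq differs between their processing notes and their methods, and whether strand was used is not given in the sources used here, so overlapping, antisense and near-identical genes are uncertain. The RPKM values that the authors deposited are those counts divided by the exon length in kilobases and by 1 scaled size for each library, which was checked on the files. The exon length column that the authors deposited was used as given.

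From these, RPKM ratios of wt to each scr library were computed, with counts under 3 set to 3. A gene was counted where wt lay at least 2-fold beyond both scr libraries, with at least 10 counts in wt (higher) or in each scr library (lower). No test across libraries was run because wt is 1 library. Nothing in the labels says that the scr libraries came from separate cultures. In each direction, the genes named are the 12 with the largest ratio to the nearer scr library at an RPKM of at least 20, the next 8 at 2 to 20, both without small RNAs (exons under 300 bases), list members counted at 2-fold (up to 6 per list and direction), the 5 genes in each direction that differed most between the scr libraries, and those the study names. Some genes that meet these rules are not reported here. Older gene symbols in the lists were matched through RefSeq synonyms. The genes compared, the lists and the rules were chosen with earlier results of these data known. Counting intervals are exact (Clopper-Pearson, 95%). Alternatives used other scalings (edgeR 4.0.16 and DESeq2 1.42.0, factors only), pseudocounts, filters, folds and each scr library left out. The counting code was run on simulated counts with counting error only and planted 4-fold changes. The simulated controls differed by counting error alone, unlike the real ones, so the run checked the code and not the sets. Python 3.11.15, pandas 2.3.3 and R 4.3.3 were used.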

Additional observations from a re-analysis of the deposited data

How the results depend on the processing

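The counts of 139 higher and 75 lower genes depend first on the fold and on how low levels are treated. They were 492 and 280 at 1.5-fold, 45 and 11 at 4-fold, 77 and 27 with 1 RPKM added to each value, 277 and 166 without the filter on RPKM, and 28 and 19 among genes with an RPKM of at least 20. When the knockdown libraries had to be passed as well they were 58 and 16. With 1 scr library left out in turn, they ranged from 494 to 707 and from 260 to 495, the larger values being those without scr 25-2. Genes with the scr libraries apart numbered 3034 at 1.5-fold, 380 at 4-fold, 834 with 1 RPKM added, 2163 without the filter and 336 at an RPKM of at least 20. For wt and scr 25-2 the same counts were 2110, 208, 406, 1366 and 164, and for wt and scr 50-1 they were 3009, 266, 684, 1954 and 315.

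The 4 other scalings gave 136 to 142 higher and 71 to 81 lower genes, and 0.1 RPKM added gave 132 and 63. Leaving out genes whose counting interval reached 1 gave 137 and 73. Chosen after seeing the data, taking out the median of each 10 Mb window gave 128 and 78 genes (121 and 64 shared), and leaving out chromosome 6 gave 123 and 72. Of the 68 named genes in the sets, 53 stayed past 2-fold in 8 settings that kept all 3 libraries and 15 did not. With 1 RPKM added, Aldh1a2, Apob, Cth, Dram1, H1f1, Krtap5-5, Mir1192, Mir19a, Npr1, Nupr1, Oas1b, Plac8, Trap1a and Vaultrc5 fell under 2-fold, and with the length slope taken out Hpx, H1f1 and Mir19a did, as did H1f1 with the window median taken out. None of the 68 reversed, which says little, since genes chosen for a 2-fold gap could hardly reverse under such settings. No paired analysis was possible because the groups share no replicate numbers. Low genes are limited by counts, and every difference by the single wt library.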

Other observations

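Some further genes of the higher set were picked from it after their values were seen, and no list of them was fixed. The tetraspanin Cd53 had an RPKM of 35.2 in wt, 1.43 in scr 25-2 and 16.7 in scr 50-1, with 0.76 to 1.30 in the knockdown libraries. The receptors Slamf9 (5.73, 0.65 and 1.01) and Fcgr2b (1.51, 0.22 and 0.36), the phosphatase Ptpn6 (8.73, 2.25 and 2.51) and the cytokine Il18 (3.58, 0.76 and 0.70) were also at least 2-fold higher in wt than in both controls. Of the leukocyte markers, Cd14 was below both controls in wt (29.9 against 36.3 and 63.9), as was Itgam (0.06 against 0.12 and 0.33), Cd68 lay between them (3.51, 3.02 and 4.53), Ptprc was at or below 0.06, and the summed RPKM of the 8 macrophage markers was 34.1 in wt against 40.6 and 69.0.

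A few other genes of either set were also picked after their values were seen. Txnip, which is induced by glucose, was at 38.8 in wt against 13.7 and 14.7, and Hilpda, a lipid droplet protein, at 58.9 against 22.2 and 25.1. Mlxipl, which encodes the carbohydrate response factor ChREBP, was at 0.11 against 0.32 and 1.00, and Prkaa2, a catalytic subunit of AMP-activated kinase, at 1.89 against 4.56 and 5.01.

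Also in the higher set were Lsm3 (163, 74.4 and 37.7), Snrnp27 (66.7, 31.6 and 22.9), Rpa3 (71.8, 33.5 and 24.3) and Polb (30.7, 12.04 and 12.5). The first 3 lie on chromosome 6, where the medians of all tested genes were 0.32 and 0.41 (log2 ratio of wt to scr 25-2 and to scr 50-1), and short genes were relatively higher in wt. The part of either in these values was not tested.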
